A study of Mus musculus with 12 samples.

Results

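The 9 genes described here encode small GTPases of the RAS subfamily, and they were chosen by name from the table of gene counts: the classical RAS genes Hras and Nras, the R-RAS and M-RAS genes Rras, Rras2 and Mras, the RAP1 genes Rap1a and Rap1b, and the RAL genes Rala and Ralb. All 9 were found among the 47480 gene symbols and all 9 passed the filter on low counts, which kept 17236 genes. RNA was sequenced from trigeminal nerve, the sensory nerve of the face, in 12 mouse libraries. The 6 normal nerve libraries came from Nf1 flox/flox PostnCre- mice, and the 6 plexiform neurofibroma libraries came from Nf1 flox/flox PostnCre+ mice. Floxed Nf1 was thus carried by both groups, and genotype and tumour state coincide. PostnCre is a Cre recombinase under a periostin promoter, used to remove floxed genes in the Schwann cell lineage, so other cells of the nerve can keep Nf1. Age, sex, litter and batch are not in the labels, and the labels do not say that each library came from its own animal, so p-values measure the spread between these libraries.

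RAS GTPases switch between a GTP-bound active form and a GDP-bound inactive form. Exchange factors load GTP, and GTPase-activating proteins (GAPs) such as neurofibromin, the product of Nf1, speed its hydrolysis. H-RAS and N-RAS recruit RAF kinases and so start the ERK cascade. R-RAS acts on integrins and adhesion, R-RAS2 (TC21) is its close relative, and M-RAS joins SHOC2 and protein phosphatase 1 in a complex that removes an inhibitory phosphate from RAF. RAP1 proteins control integrins and cell junctions, and RAL proteins act through the exocyst, a complex that tethers secretory vesicles. In plexiform neurofibroma, a nerve sheath tumour that follows loss of Nf1 in Schwann lineage cells, RAS is active because its brake is missing, and RNA levels do not measure that activity.

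Values after ± are SD over the 6 libraries of a group. Total counts ran from 14160025 to 19989351 per library, and the 9 genes had between 129 counts (Rras2) and 3951 counts (Mras) in a library. The mean level of Nf1, counted over the whole gene, was 131 CPM (counts scaled to library size) ± 35.8 for normal nerve against 83.8 CPM ± 8.13 for tumours (log2 fold change -0.65, SE 0.16, edgeR adjusted p = 0.018). Markers of the labelled tissue were present, with Sox10 between 72.5 and 261 CPM and S100b between 788 and 1736 CPM. Transcripts of sensory neurons were abundant as well, with Nefl between 1866 and 3178 CPM and Scn10a between 269.5 and 758 CPM. Of 12 skeletal muscle markers only 6 passed the filter. The summed level of all 12 reached 475 CPM in normal nerve replicate 3 and 1973 CPM in plexiform neurofibroma replicate 1. That of central nervous system markers reached 2666 CPM in normal nerve replicate 6. Calls of the 9 genes and counts in the lists that change without these 3 libraries are given with and without them.

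The promoters of the M-RAS and R-RAS genes are shown first because these genes had the largest differences between groups, and that of Hras is shown as a classical RAS gene for which no difference was called. Each window holds the 250 bases before and the 50 bases after a transcription start in RefSeq on GRCm38.p6, written 5′ to 3′ on the gene's own strand. Windows were found for 8 of the 9 genes. Capitals mark matches to any of 9 motifs on either strand, which here are GC boxes (GGGCGG) and CCAAT boxes.
Rras, chr7:45017692-45017991, plus strand: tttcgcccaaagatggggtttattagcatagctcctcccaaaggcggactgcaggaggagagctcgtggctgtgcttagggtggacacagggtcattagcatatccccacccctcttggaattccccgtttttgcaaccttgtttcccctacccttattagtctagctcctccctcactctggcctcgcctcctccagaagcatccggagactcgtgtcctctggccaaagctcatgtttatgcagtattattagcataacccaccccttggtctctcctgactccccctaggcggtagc
Rras2, chr7:114117732-114118031, minus strand: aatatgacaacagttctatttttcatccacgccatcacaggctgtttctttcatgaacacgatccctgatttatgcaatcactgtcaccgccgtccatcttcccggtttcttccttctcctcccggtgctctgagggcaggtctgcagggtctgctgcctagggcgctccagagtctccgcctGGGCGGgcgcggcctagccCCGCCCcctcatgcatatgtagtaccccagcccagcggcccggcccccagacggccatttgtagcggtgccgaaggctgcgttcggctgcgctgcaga
Mras, chr9:99436663-99436962, minus strand: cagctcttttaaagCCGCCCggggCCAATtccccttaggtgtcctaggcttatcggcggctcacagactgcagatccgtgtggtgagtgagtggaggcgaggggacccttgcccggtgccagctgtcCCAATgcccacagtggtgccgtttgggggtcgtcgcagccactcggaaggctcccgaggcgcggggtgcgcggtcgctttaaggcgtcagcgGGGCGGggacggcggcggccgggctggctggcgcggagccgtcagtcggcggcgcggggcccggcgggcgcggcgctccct
Hras, chr7:141193955-141194254, minus strand: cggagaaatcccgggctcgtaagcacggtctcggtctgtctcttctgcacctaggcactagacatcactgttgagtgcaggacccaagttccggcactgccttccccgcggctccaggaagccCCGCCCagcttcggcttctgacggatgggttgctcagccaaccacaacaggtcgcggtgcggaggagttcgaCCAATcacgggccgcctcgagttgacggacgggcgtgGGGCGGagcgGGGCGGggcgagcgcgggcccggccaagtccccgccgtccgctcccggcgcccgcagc

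The windows differed in base composition. The Rras window held 8 CpG dinucleotides and neither box, Rras2 held 20 CpG and 2 GC boxes, and Mras held 36 CpG with 2 GC boxes and 2 CCAAT boxes. Hras held 34 CpG, 3 GC boxes and 1 CCAAT box. RefSeq gives Rras another 2 windows that start further downstream, with 2 and 6 CpG, no GC box, and 1 and 2 CCAAT boxes. The median of all 32851 windows was 7 CpG, and 35.7% of windows held a GC box and 37.4% a CCAAT box on either strand. The other 7 motifs, searched on both strands, were the TATA box TATAAA (13.6% of windows), an ETS core CCGGAAG (8.86%), the AP-1 letters TGANTCA (7.81%), the cAMP response core TGACGT (7.51%), the E-box CACGTG (7.15%), an NRF1 site GCGCATGC (2.71%) and a YY1 site AAGATGGCG (1.4%). None of these 7 was present in the 4 windows shown. Elsewhere among the 9 genes, the ETS core was present once for Rala, the E-box once each for Ralb and Nras, and the cAMP response core at 1 place for Rap1b, where it reads on both strands. A match is a string of letters, and its absence from a window says nothing about binding.

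In the tumours 5 of the 9 genes were higher and 0 were lower at an edgeR adjusted p under 0.05. Across all 17236 genes tested, 10.0% were called higher and 8.63% lower. DESeq2 and limma-voom called 6 of the 9 higher and 0 lower. Both also called more genes over all, 2226 higher and 2027 lower in DESeq2 and 2864 and 2701 in limma-voom. The main edgeR fit called 1730 higher and 1488 lower. No member had a log2 fold change below 0 with an unadjusted edgeR p under 0.05, beside 17.9% of all genes tested. The 5 genes called in the main edgeR fit were Rras, Mras, Rras2, Rala and Ralb. For 3 of the 9 (Rras, Rras2 and Rala) every tumour lay above every normal library, a pattern seen in 4.40% of all genes tested. Members and lists were chosen with earlier results of these data known, among them the rises of Rras, Mras and Rras2, so these counts are a description and no independent evidence for the group. In such bulk tissue, more cells of a type and more RNA per cell cannot be told apart.

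**Figure D1:**
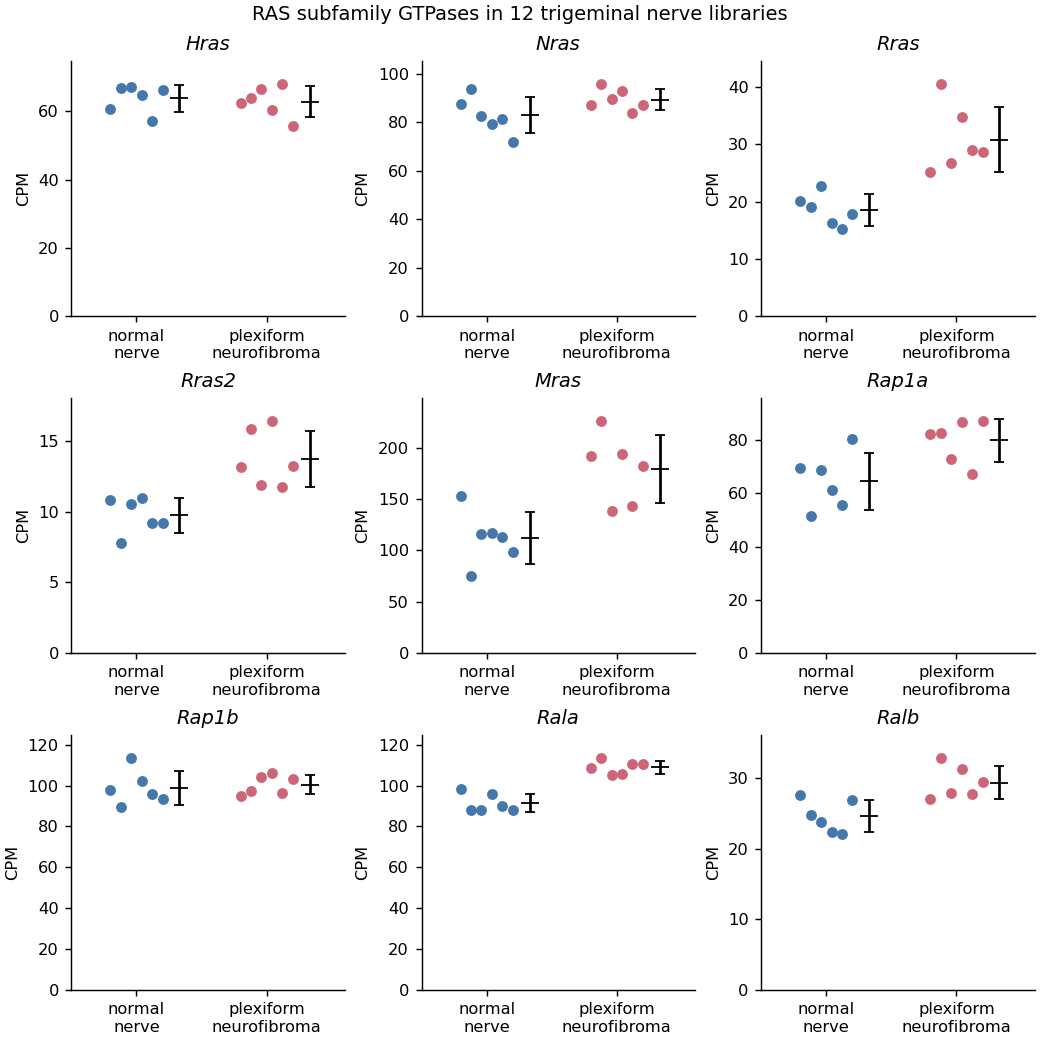
CPM of each of the 9 GTPase genes (vertical axes, from 0) in the 6 normal nerve libraries (blue) and the 6 plexiform neurofibroma libraries (red), in replicate order within a group, with the mean and SD beside them in black. The groups are apart for Rras, Rras2 and Rala, overlap in part for Mras and Ralb, and lie at one level for Hras and Rap1b.

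Rras, which encodes R-RAS, had the largest log2 fold change of the 9 in the main edgeR fit. That of Mras was larger after the length correction (0.74 against 0.59). It was also slightly larger without normal nerve replicate 1 (0.79 against 0.76) or 5 (0.683 against 0.682). Rras measured 15.2 CPM at the lowest, 18.5 at the median and 22.7 at the highest in normal nerve, and 25.2, 28.9 and 40.5 CPM in the tumours. The groups did not overlap, and plexiform neurofibroma replicates 2 and 4 stood highest, at 40.5 and 34.8 CPM. The means were 18.5 CPM ± 2.72 and 30.8 CPM ± 5.74, a 1.66-fold rise with a 95% interval of 1.37 to 2.01 (log2 fold change 0.73, SE 0.13, edgeR adjusted p = 0.00375). Rras lies on chromosome 7 from 45017961 to 45021647 (GRCm38), and no other annotated gene overlaps it.

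Mras, whose product M-RAS works with SHOC2, was the most variable of the 9 in normal nerve. It ran from 74.8 CPM through a median of 114 to 153 CPM in normal nerve and from 138.5 through 187 to 226 CPM in the tumours. The overlap came from normal nerve replicate 1, at 153 CPM, which exceeded plexiform neurofibroma replicates 3 and 5 at 138.5 and 143 CPM. Its mean rose 1.6-fold, from 112 CPM ± 25.6 to 179 CPM ± 33.4 (95% interval of the fold 1.26 to 2.04, log2 fold change 0.68, SE 0.16, edgeR adjusted p = 0.0134). Without normal nerve replicate 2, the lowest library, the log2 fold change was 0.60, and without replicate 1 it was 0.79. The gene spans chromosome 9 from 99385420 to 99437381.

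Rras2, which encodes TC21, was the lowest of the 9 in counts. Values of 7.78, 9.88 and 11 CPM (lowest, median and highest) in normal nerve compared with 11.8, 13.2 and 16.5 CPM in the tumours. The ranges were separate but close, since normal nerve replicate 4 at 11 CPM lay just under plexiform neurofibroma replicates 5 and 3 at 11.8 and 11.9 CPM. Rras2 rose 1.41-fold, from 9.76 CPM ± 1.25 to 13.7 CPM ± 1.99 (95% interval 1.18 to 1.68, log2 fold change 0.49, SE 0.12, edgeR adjusted p = 0.014). It lies on chromosome 7 from 114046782 to 114117781, where an antisense gene, Gm45615, overlaps 1460 bases of it. The sources used here do not say whether counting used strand. The calls of Rras, Mras and Rras2 were made under all 24 alternatives tried, with the highest adjusted p at 0.01185 for Rras and 0.0382 for Rras2 without plexiform neurofibroma replicate 4, and 0.0467 for Mras without the 3 libraries that stood apart.

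Both RAL genes were higher by about the same small amount. Rala measured 87.9 CPM at the lowest, 89.1 at the median and 98.4 at the highest in normal nerve, and 105.4, 109.6 and 113.7 CPM in the tumours. No tumour fell within the normal range, and the coefficient of variation was 4.93% in normal nerve and 2.91% in the tumours, the lowest of the 9 genes in both groups. The rise was 1.19-fold, from 91.4 CPM ± 4.51 to 109.1 CPM ± 3.18 (95% interval 1.11 to 1.29, log2 fold change 0.26, SE 0.05, edgeR adjusted p = 0.00671). It was called under all 24 alternatives. Rala spans chromosome 13 from 17880571 to 17944239, where the antisense gene Gm48754 overlaps 6049 bases.

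Ralb (chromosome 1, 119470305 to 119504794) measured 22.1, 24.3 and 27.7 CPM (lowest, median and highest) in normal nerve and 27, 28.6 and 32.9 CPM in the tumours. Plexiform neurofibroma replicate 1, at 27 CPM, lay below normal nerve replicate 1, and the other 5 tumours lay above every normal library. Its rise was 1.19-fold, from 24.6 CPM ± 2.29 to 29.4 CPM ± 2.31 (95% interval 1.06 to 1.34, log2 fold change 0.25, SE 0.08, edgeR adjusted p = 0.0359). Dropping normal nerve replicate 3, 4 or 5, or plexiform neurofibroma replicate 2, 4 or 6, singly ended this call (adjusted p in edgeR from 0.0597 to 0.0847), as did using no filter (0.065). The ratio of Rala to Ralb counts within a library, which does not depend on normalization, ran from 3.29 to 4.27 in normal nerve and from 3.38 to 4.03 in the tumours, so the ranges overlapped.

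Neither classical RAS gene was called. Hras (chromosome 7, 141189105 to 141194005) measured 57.3, 65.5 and 67.1 CPM (lowest, median and highest) in normal nerve and 55.8, 63.3 and 68 CPM in the tumours. Its means were 63.9 CPM ± 3.99 and 62.9 CPM ± 4.42 (log2 fold change -0.02, edgeR adjusted p = 0.84), and the 95% interval of the fold, 0.894 to 1.09, does not reach the fold of 1.19 of Rala and Ralb, the smallest called. Nras (chromosome 3, 103058285 to 103067914) measured 72, 82.1 and 93.8 CPM in normal nerve and 83.9, 88.4 and 95.7 CPM in the tumours. All 6 tumours lay above the normal mean of 82.9 CPM ± 7.41, but normal nerve replicates 1 and 2 lay among them. The tumour mean was 89.4 CPM ± 4.26 (log2 fold change 0.11, SE 0.07, edgeR adjusted p = 0.264), with a 95% interval of the fold of 0.975 to 1.19. The upper end of this interval is about the fold of Rala and Ralb, so a rise of that size was not excluded for Nras. The ratio of Rras to Hras within a library ran from 0.252 to 0.339 in normal nerve and from 0.402 to 0.633 in the tumours, and did not overlap. For Mras to Hras the ranges were 1.12 to 2.51 and 2.08 to 3.54, with 4 tumours above every normal library.

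The RAP1 genes stood apart from each other in their values. Rap1a measured 51.4, 65.1 and 80.5 CPM (lowest, median and highest) in normal nerve and 67.5, 82.6 and 87.2 CPM in the tumours, and Rap1b measured 89.5, 96.9 and 113.7 CPM and 94.9, 100.3 and 106.1 CPM. For Rap1a 4 tumours lay above every normal library, and normal nerve replicates 6, 1 and 3, at 80.5, 69.7 and 68.7 CPM, lay above the lowest tumour. Its means were 64.5 CPM ± 10.6 and 79.9 CPM ± 7.99 (log2 fold change 0.31, SE 0.11, edgeR adjusted p = 0.0617), which missed the threshold. Rap1a passed in 7 of 24 alternatives, at 0.38 log2 without normal nerve replicate 6 (edgeR adjusted p = 0.0109), at 0.35 without plexiform neurofibroma replicate 5 (0.0427), at 0.42 without the 3 libraries that stood apart (0.0194), with either covariate for sensory neuron or for pericyte and smooth muscle markers (0.00949 and 0.0402), in DESeq2 (0.0325) and in limma-voom (0.00783). Rap1b had means of 98.8 CPM ± 8.49 and 100.4 CPM ± 4.65 (log2 fold change 0.02, edgeR adjusted p = 0.824), with a 95% interval of the fold of 0.922 to 1.12. The ratio of Rap1a to Rap1b ran from 0.574 to 0.862 in normal nerve and from 0.698 to 0.867 in the tumours, and whether the 2 genes differ in response was not tested. Of the 31-base strings in annotated Rap1a transcripts, 13.1% also occur in another gene, most in the pseudogene Gm9392, which had 10.5 counts per library on average, so its counts are less certain than those of Rap1b, which shares none.

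**Figure D2:**
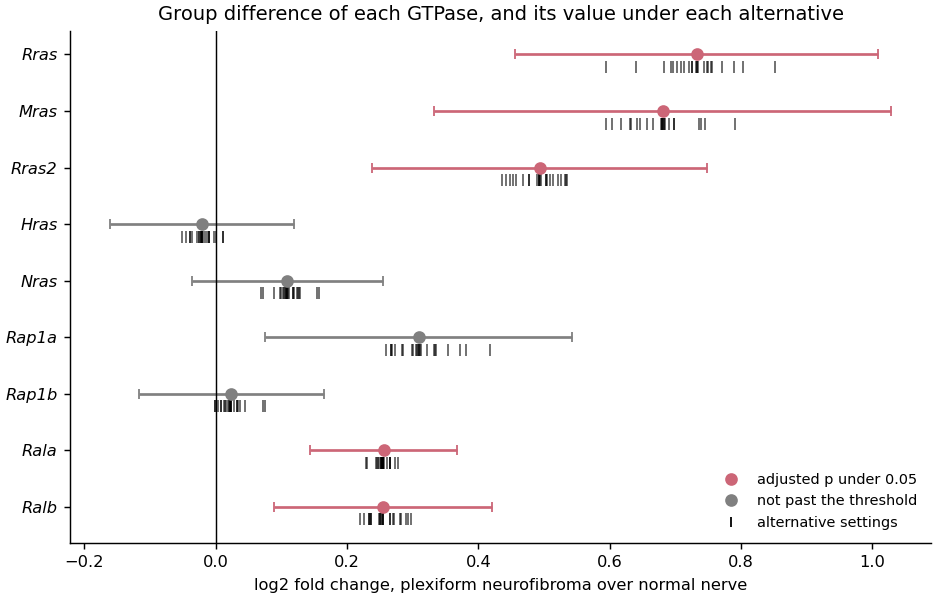
Log2 fold change of each GTPase gene, plexiform neurofibroma over normal nerve (horizontal axis), with its 95% interval; red points passed an adjusted p under 0.05 in edgeR and grey points did not. Ticks under each point are its 24 alternative settings, which stay above 0 for the 5 called genes and for Nras and Rap1a and lie on both sides of 0 for Hras and Rap1b.

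Levels of different genes were compared as CPM per kilobase of the longest annotated transcript. In normal nerve the order was Rap1b at 36.3 ± 3.12, Rala at 34 ± 1.68, Rap1a at 26.8 ± 4.41, Mras at 23.8 ± 5.45, Hras at 22.6 ± 1.41, Rras at 18.6 ± 2.73, Nras at 18.5 ± 1.66, Ralb at 8.97 ± 0.834 and Rras2 at 2.76 ± 0.354 CPM per kilobase. Each neighbouring pair from Rap1b down to Nras had overlapping ranges, while Ralb and Rras2 each lay below every gene above them. In the tumours Rala at 40.6 ± 1.18 and Mras at 38.2 ± 7.11 came first, and Rras, at 31 ± 5.77 CPM per kilobase, had passed Hras at 22.2 ± 1.56. This order depends on the transcript taken. With the median length of coding transcripts, Nras came first in normal nerve at 103.3 CPM per kilobase and Rap1b sixth at 36.3, while Ralb and Rras2 stayed lowest.

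As a share of the per-length sum of the 9 genes, Rras, Rras2 and Mras together made up 23.4% ± 2.1 in normal nerve and 30.7% ± 3.05 in the tumours. The ranges were 21% to 26.7% and 27% to 35.7%. Hras and Nras made up 21.5% ± 1.87 and 17.9% ± 1.37, and the RAL genes 22.4% ± 1.14 and 21.7% ± 1.04. These are parts of a whole, so the share of some genes falls when that of others rises. In CPM neither Hras nor Nras was called, and both RAL genes were higher in the tumours. With median coding lengths the share of the R-RAS and M-RAS genes was 27.7% ± 3.2 and 35.3% ± 3.21, and the ranges overlapped.

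**Figure D3:**
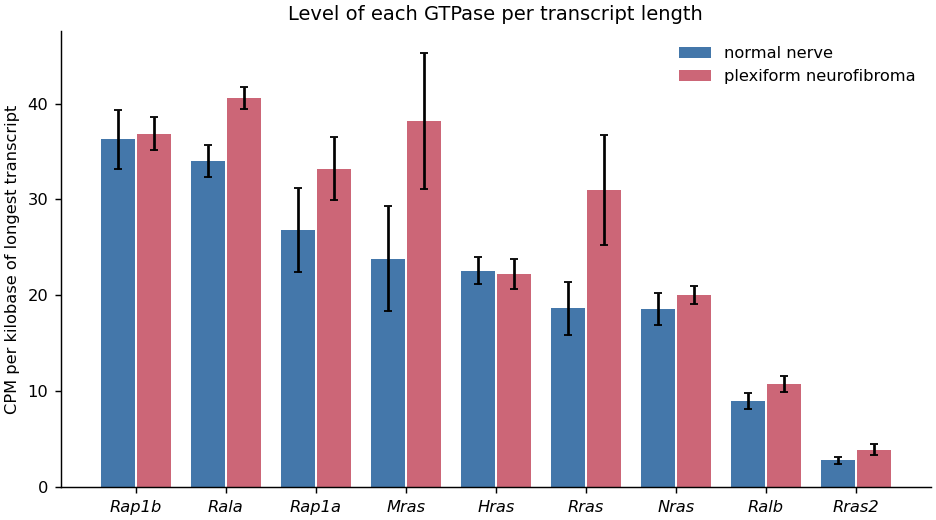
CPM per kilobase of the longest annotated transcript (vertical axis) for each GTPase gene, as the mean of 6 libraries with the SD, in normal nerve (blue) and plexiform neurofibroma (red), ordered by the normal nerve mean. In the tumours Mras stands above both RAP1 genes and Rras above Hras, and Ralb and Rras2 are lowest in both.

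The spread within a group was shared by some members. Among the tumours, replicates 2 and 4 were highest for Mras, Rras2, Rras and Ralb, and replicates 3 and 5 were lowest for Mras and Rras2. The summed level of 12 Schwann cell markers ran from 4910 to 13237 CPM in normal nerve and from 11353 to 19891 CPM in the tumours, with 6 of the 12 markers called higher and 0 lower. The order of the 6 tumours by Mras was the same as their order by this sum, and normal nerve replicates 2 and 1 were lowest and highest in both. Set against the sum, Mras had 13.3 ± 1.71 CPM per 1000 CPM of Schwann cell markers in normal nerve and 11.8 ± 0.446 in the tumours, with ranges of 11 to 15.2 and 11.1 to 12.2. For Rras these values were 2.33 ± 0.847 and 2.05 ± 0.328, and for Rras2 1.195 ± 0.269 and 0.914 ± 0.0998. Rala had 11.4 ± 3.56 and 7.42 ± 1.58, Ralb 3.07 ± 1.02 and 1.98 ± 0.347, and Hras, not called in CPM, 8.1 ± 2.99 and 4.32 ± 1.18. Because the sum ran higher in the tumours, a gene with unchanged CPM falls on this scale, as the mean of Hras did. The tumour mean was below the normal mean for all 9 genes, and the ranges of the groups overlapped for all 9. Such a fall can come from the sum alone. This ratio was added after the values were seen, and what part Schwann cell content has in the rises was not tested.

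**Figure D4:**
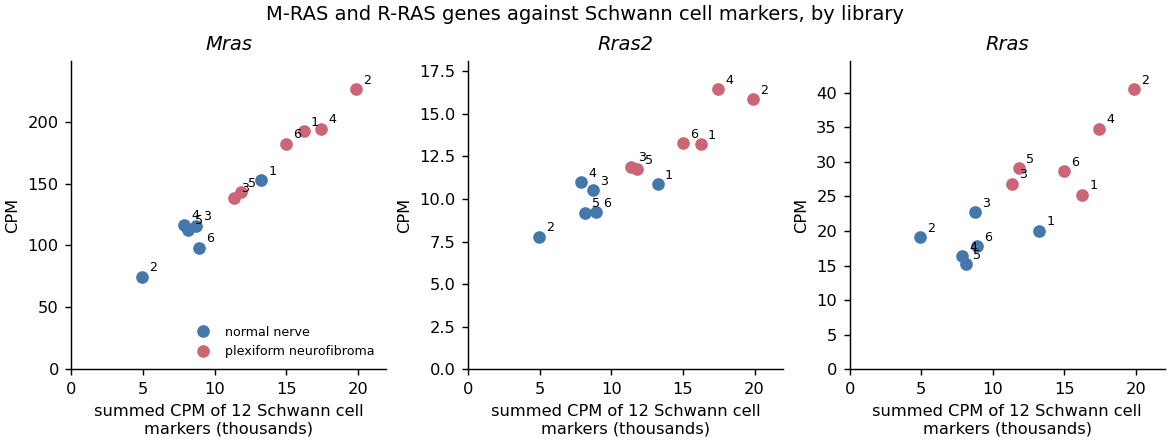
CPM of Mras, Rras2 and Rras (vertical axes, from 0) against the summed CPM of 12 Schwann cell markers in units of 1000 CPM (horizontal axes), 1 point per library numbered by replicate, normal nerve in blue and plexiform neurofibroma in red. Tumour replicates 2 and 4 lie at the upper right and normal nerve replicate 2 is furthest left in each panel.

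Markers of other cell types also differed between libraries. The summed level of 10 fibroblast markers ran from 156 to 1096 CPM in normal nerve and from 1247 to 2909 CPM in the tumours (5 of 10 called higher, 0 lower), and that of 11 macrophage markers from 66.4 to 294 CPM and from 194 to 443 CPM (3 higher, 1 lower). For 11 pericyte and smooth muscle markers, cells in which R-RAS is known, the ranges were 139.9 to 558 CPM and 255 to 708 CPM (2 of 10 tested called higher, 0 lower), for 10 endothelial markers 142 to 311 CPM and 139.8 to 209 CPM (0 higher, 1 lower), and for 7 perineurial markers 179 to 226 CPM and 175 to 225 CPM (1 of 5 tested higher, 0 lower). Sensory neuron markers summed to 9030 to 17228 CPM and 11196 to 14412 CPM, with 0 of 13 called by edgeR and 0 at an unadjusted p under 0.05. No marker of these lists was under 0.1 CPM in all libraries. With the pericyte and smooth muscle score as a covariate, the log2 fold change of Rras was 0.69, that of Mras 0.62 and that of Rras2 0.46, and all 3 stayed called. A score from these few markers cannot separate cell content from RNA per cell. The part of pericytes, smooth muscle cells, fibroblasts and macrophages in the rises was not tested.

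The genes most like each called member were taken by Pearson's r of log2 CPM over the 12 libraries, as a description, and r of the deviations from the group means is given second. For Mras they included Col23a1 (0.984 and 0.969) and Pla2g16 (0.98 and 0.952). Rras2 was closest to Itpripl2 (0.983 and 0.962), Cdc42se1 (0.97 and 0.912) and Sh3pxd2a (0.969 and 0.924), and Rras to Runx2 (0.964 and 0.898), Mcl1 (0.96 and 0.896) and S100a11 (0.956 and 0.822). Ralb was closest to Rrbp1 (0.976 and 0.95), Irf5 (0.965 and 0.92) and Bnip2 (0.964 and 0.915). For Rala they were Hnrnpf (0.963 and 0.72), P2rx4 (0.956 and 0.684) and Hsd17b10 (0.955 and 0.65), with lower values within groups. All these values share the same libraries and their cell content.

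Genes around the 9 GTPases were read as lists, beside 18.7% of all genes called in either direction and a median log2 fold change of -0.02 over all genes. Of 15 exchange factors and GAPs of RAP, 1 was higher and 4 were lower, with a median of -0.22. Rapgef4, the cAMP-activated exchange factor EPAC2, fell from 237.9 CPM ± 45.6 to 158.7 CPM ± 10.6, a fold of 0.667 (edgeR adjusted p = 0.00597). Rap1gap2, a GAP of RAP1, fell to 0.692 of the normal level (edgeR adjusted p = 0.00576), and the exchange factors Rapgef2 and Rapgef1 fell to 0.85 and 0.878 (edgeR adjusted p = 0.0176 and 0.0379; Rapgef1 was chosen after its values were seen). Sipa1, another GAP of RAP1, rose 1.78-fold from 13.1 CPM ± 3.64 to 23.4 CPM ± 5.83 (edgeR adjusted p = 0.0174). Lower genes of this list numbered 2 with no filter and 2 after the correction for transcript length, where Rapgef2 had an edgeR adjusted p of 0.119, and 7 in limma-voom. Higher genes numbered 3 without normal nerve replicate 6 and 2 without replicate 1 or 2.

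Of 9 exchange factors and GAPs of RAL, 0 were higher and 3 were lower, with a median of -0.225. The exchange factors Ralgps2 and Ralgps1 fell to 0.718 and 0.681 of the normal level (edgeR adjusted p = 0.00688 and 0.0157). Ralgapa2, a catalytic subunit of the RAL GAP complex, fell from 48.1 CPM ± 10.6 to 34.5 CPM ± 1.58 (fold 0.718, edgeR adjusted p = 0.0191) and was not called after the length correction (0.0703). In limma-voom 6 of the 9 were lower, and 5 were lower when normal nerve replicate 6 was dropped. Over all genes these settings also called more lower, 2701 and 2487 against 1488 in the main fit. Of 11 RAL effectors and exocyst subunits 0 were called, and Exoc1 and Exoc2, with the smallest p, had log2 fold changes of -0.24 and -0.23 (edgeR adjusted p = 0.07 and 0.0719). Unadjusted edgeR p was under 0.05 for these 2 alone, beside 17.9% of all genes tested that were lower at that level. DESeq2, limma-voom and edgeR with normal nerve replicate 6 dropped each called 2 lower. All of these settings also called more genes lower over all, 2027 in DESeq2.

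RAP effectors gave 0 higher and 2 lower of 12. Krit1, which binds RAP1 at endothelial junctions, fell to 0.767 of the normal level (edgeR adjusted p = 0.00649), and Rasip1, an endothelial RAP1 effector, fell to 0.651 (0.027). Dropping normal nerve replicate 3, or plexiform neurofibroma replicate 3, 4 or 6, singly ended the call of Rasip1 (adjusted p in edgeR up to 0.0599), as did dropping the 3 libraries that stood apart (0.0697). When normal nerve replicate 6 was dropped, 1 RAP effector was higher and 4 were lower.

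Both subunits of farnesyltransferase, the enzyme that attaches the lipid needed to bring classical RAS proteins such as H-RAS and N-RAS to membranes, rose. Fntb went from 43.6 CPM ± 7.1 to 69.95 CPM ± 9.645, 1.6-fold (edgeR adjusted p = 0.00367), and Fnta, the subunit shared with the related type I prenyltransferase, from 106.1 CPM ± 10.7 to 144 CPM ± 9.37, 1.36-fold (edgeR adjusted p = 0.00356). The ranges did not overlap for either gene, and both were called under all 24 alternatives. In edgeR they were the 2 called among 13 genes for lipid processing and delivery, and 3 of the 13 were lower in limma-voom and when normal nerve replicate 6 was dropped. Pggt1b encodes the other subunit of that prenyltransferase and was chosen with its values known; it had a log2 fold change of -0.07 (edgeR adjusted p = 0.78).

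The partners of M-RAS did not pass the test. Of 8 genes of the SHOC2 complex and of RAS degradation 0 were called; the smallest adjusted p were those of Cul3 at -0.16 log2 (edgeR adjusted p = 0.0835) and Erbb2ip, the older symbol of Erbin, at 0.42 log2 (0.149). Shoc2 itself had a log2 fold change of -0.15 (edgeR adjusted p = 0.258) and was chosen after its values were seen. DESeq2 called 1 lower, and limma-voom and edgeR with normal nerve replicate 6 dropped each called 1 higher and 2 lower. Cul3 alone had an unadjusted edgeR p under 0.05, beside 17.9% of all genes tested that were lower at that level. Of 19 direct RAS effectors, Rin2, an exchange factor of RAB5, was the only one called, at 1.31-fold (edgeR adjusted p = 0.0128), and 2 were higher and 3 lower when normal nerve replicate 6 was dropped.

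Among 23 tested relatives in the wider RAS family, 3 were higher and 2 lower. Rem1, of the RAD and GEM branch, rose 3.76-fold from only 0.827 CPM ± 0.324 to 3.1 CPM ± 1.09 (edgeR adjusted p = 0.00276), and Rasl11b rose 1.54-fold (0.0208). Rap2b, chosen after its values were seen, rose 1.3-fold (edgeR adjusted p = 0.0425). Rasl10b fell from 65.6 CPM ± 13.2 to 38.1 CPM ± 3.76 (fold 0.581, edgeR adjusted p = 0.00253), and Diras1 had a fold of 0.761 (0.0364). The call of Diras1 ended in 8 of 12 fits that dropped 1 library (it held without normal nerve replicate 1 or 6 and without plexiform neurofibroma replicate 3 or 5; adjusted p in edgeR up to 0.082). That of Rasl11b ended after the length correction (0.0518) and without plexiform neurofibroma replicate 2 (0.0504), where 1 relative was called higher. In limma-voom 5 relatives were lower, and 4 were when normal nerve replicate 6 was dropped.

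Without the 3 libraries that stood apart, edgeR called more genes over all, 2148 higher and 1893 lower against 1730 and 1488 with all 12 libraries. It then also called genes in lists where it had called none. Exoc1 was lower among the RAL effectors and exocyst subunits, and in the SHOC2 list Cul3 was lower and Erbb2ip higher. Among the regulators of RAP 2 genes were then higher and 5 lower, among those of RAL 0 and 5, and among the RAP effectors 1 and 3. The genes for lipid processing had 2 higher and 2 lower, and the direct RAS effectors 2 higher and 1 lower. The wider RAS family stayed at 3 higher and 2 lower.

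**Figure D5:**
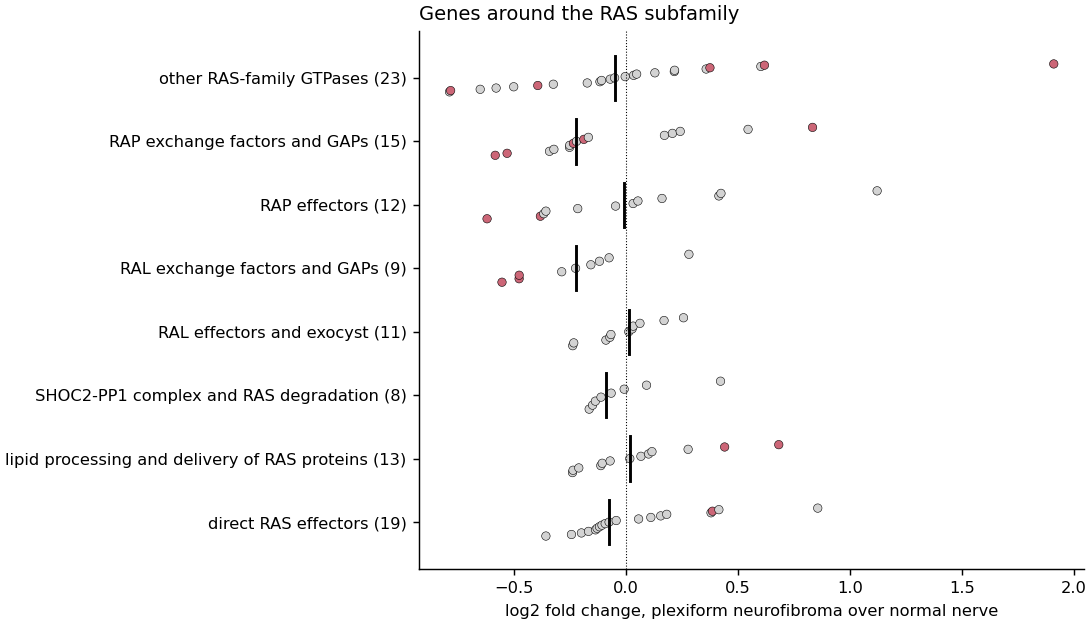
Log2 fold change, plexiform neurofibroma over normal nerve (horizontal axis), of each tested gene in 8 lists around the RAS subfamily, with the number tested in parentheses; red points passed an adjusted p under 0.05 in edgeR and black bars are list medians. The regulators of RAP and of RAL have medians of -0.22 and -0.225, and the farnesyltransferase subunits are the 2 red points of their list.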

How the data were processed

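RNA-seq was analysed from 12 mouse trigeminal nerve libraries. Per the labels' protocols, polyA RNA libraries were made; a stranded kit and a TruSeq kit are both named. Per the submitters' processing notes, the tools were DESeq2, FastQC, Salmon 0.60 and STAR 2.4.2a, with mm10 as the build and no roles stated. The authors deposited estimated counts per gene symbol, not normalized; 84.1% to 86.5% of a library's values were whole within 0.001. These expected counts were rounded. The sources used here do not give the annotation or the use of strand.

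Genes were filtered with filterByExpr and tested in edgeR 4.0.16 (R 4.3.3) with TMM factors, the robust quasi-likelihood F test and Benjamini-Hochberg adjustment over all 17236 genes; calls are at 0.05. CPM use TMM-scaled library sizes. Intervals are 95% from the model. The script was tested on simulated data. Coordinates and transcript lengths are from GENCODE vM21 on GRCm38, the assembly of mm10.

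Named genes are the 9 members, up to 4 called genes of each list by p (otherwise the 2 smallest p), and the 3 genes closest to each called member with mean CPM of at least 5, of which 1 is not reported here. The members and lists were chosen with earlier results of these data known. Alternatives were upper-quartile or RLE factors, no filter at all, CPM above 1 in 6 libraries, DESeq2 1.42.0, limma-voom (limma 3.58.1) with sample weights, a transcript length correction (lowess, span 0.3), covariates for sex-linked, sensory neuron, skeletal muscle, and pericyte and smooth muscle scores, and each library left out. The fit without normal nerve replicates 3 and 6 and plexiform neurofibroma replicate 1 was chosen after seeing the data. No 2 replicates agreed within sampling noise (lowest chi-square per gene 12.8).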

Additional observations from a re-analysis of the deposited data

How the results depend on the processing

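The count of GTPase genes called higher lay between 4 and 6 under all 24 alternatives, each library left out included, and that of lower ones was 0 in all of them. Hras, not called in any, changed sign at 0.0003 log2 without normal nerve replicate 2, 0.0116 without plexiform neurofibroma replicate 6 and 0.011 without the 3 libraries that stood apart; with 1 library left out it ran from -0.051 to 0.0116. Rap1b did so at -0.0007 in limma-voom and -0.0005 after the length correction. Over all genes, limma-voom called 2864 higher and 2701 lower against 1730 and 1488, and 902 were lower with no filter. With 1 library left out, higher genes ran from 1092 (without plexiform neurofibroma replicate 4) to 2544 (without normal nerve replicate 6) and lower genes from 801 to 2487 (the same 2 libraries). Lower genes were also fewer by over 1.5 times without normal nerve replicate 4 (976) or 5 (907) and without plexiform neurofibroma replicate 2 (942) or 6 (934). The causes were not tested. No setting moved the median log2 fold change of all genes by more than 0.0231. No paired analysis was made, since the groups differ in genotype and the labels name no pairs of libraries. Replicate numbers used here are the order of the libraries within each group in the deposited counts. Among the 9 GTPase genes, depth limits Rras2 most, which had the lowest counts.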
